A study of Mus musculus with 2 samples.

Results

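The 39 genes described here encode the lysosome and its proton pump: 16 subunits and accessory proteins of the vacuolar ATPase, 10 proteases, 8 glycan and lipid hydrolases with their cofactors, and 5 lysosomal membrane proteins. They were taken by name, for the role of their products, with earlier results of these data known. All 39 were found among the 21887 protein-coding genes of the RefSeq annotation of GRCm38.p6. Chromatin accessibility was read as the number of ATAC-seq fragments that overlap a gene and the 2 kb on each side of it. ATAC-seq uses a transposase that cuts open DNA, so a fragment marks DNA that was accessible in a nucleus and is not a measure of RNA or protein. Droplet-based single-nucleus ATAC-seq was run on liver cells of 1 Spta wt/wt mouse and 1 Spta sph/sph littermate. Both were untreated males of 8 to 10 weeks. The sph allele alters α-spectrin, a protein of the red cell membrane skeleton, and mice homozygous for it have hereditary spherocytosis with a high turnover of red cells. In both mice the non-parenchymal cells left after collagenase digestion were enriched for macrophages with beads against F4/80, a macrophage surface protein. The barcodes carry the suffix 1 or 2, which no label ties to a genotype, so the text speaks of library 1 and library 2 and compares libraries, not genotypes. With 1 library per group there is no replicate check and no test. A 95% interval is an exact counting interval, it covers counting error alone, and fragments were not counted with molecular identifiers.

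Lysosomes are acidic organelles that break down material taken up from outside the cell or delivered by autophagy. The vacuolar ATPase pumps protons into them. Its V1 sector in the cytosol splits ATP, and its V0 sector in the membrane carries the protons. Cathepsins and other hydrolases work at the acidic pH that the pump sets up. Kupffer cells, the resident macrophages of the liver, engulf aged and damaged red cells and digest them in lysosomes. The transcription factor TFEB and its relatives bind E-box elements in the promoters of many lysosomal genes.

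Library 1 held 11401694 fragments and library 2 held 21656110, and the deposited table called 637 and 575 barcodes cells, against a stated target of 8000 nuclei per run. No cell barcode was shared between the libraries. The median called cell had 13220 and 13186 fragments. The libraries differed in quality: the median called cell had 72.1% and 53.7% of its fragments in peaks, and 0.669% and 12.1% of all fragments of called cells sat in pile-ups. A pile-up is a 20 kb bin in which a cell held 10 or more fragments, 10-fold or more over what the rest of its cluster would give it. Cells were clustered without the bins of the 39 gene windows and named from 100 marker genes. The Kupffer-like class held 323 cells of library 1 and 173 of library 2, and it rested on different clusters: 219 and 90 cells of library 1 lay in clusters 1 and 8, and 171 cells of library 2 lay in cluster 2. The median cell of cluster 8 had 2.09 times the median depth of its library, against 1.01 for cluster 1 and 0.84 for cluster 2. Cells of cluster 8 thus weigh more than others in the summed counts of the Kupffer-like class. All 12 Kupffer markers had fragments in this class in both libraries, but so they had in the endothelial-like class. Their summed level set the 2 apart, at 1129 and 781 fragments per 1000000 fragments of the class (CPM), against 138 and 159 CPM in the endothelial-like class. Endothelial markers summed to 662 and 512 CPM in the Kupffer-like class, against 2250 and 1351 CPM in the endothelial-like class. No Kupffer marker was among the 10 leading genes of cluster 2. Many of those 10 were protocadherin genes, so its name rests on the marker sums. The endothelial-like class held 134 and 135 cells, mostly of cluster 6 in library 1 (111 cells) and cluster 4 in library 2 (131 cells), and no endothelial marker was among the 10 leading genes of cluster 4. The monocyte or neutrophil-like class (59 and 82 cells) had none of its markers among its 10 leading genes and a dendritic cell marker score of 0.82 beside its own of 1.09. Its own markers summed to 188 and 159 CPM, against 124 and 75.9 CPM in the Kupffer-like class. Kupffer markers summed to 401 and 228 CPM and dendritic cell markers to 403 and 406 CPM in the monocyte or neutrophil-like class. Named one by one from their own marker fragments, 26 of its cells came out as monocyte or neutrophil, 23 as dendritic and 61 as unnamed. Of the Kupffer-like cells, 265 came out as Kupffer, 118 as unnamed, 27 as B cell and the rest under other names. Of the endothelial-like cells, 128 came out as endothelial, 79 as unnamed, 23 as basophil or mast cell and the rest under other names. Among all called cells this naming gave 211 Kupffer cells in library 1 and 76 in library 2.

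Member windows took up a larger share of the fragments in myeloid cells than in the other classes. In Kupffer-like cells they held 0.275% of all fragments in library 1 and 0.276% in library 2, a summed level of 2747 and 2757 CPM. The monocyte or neutrophil-like class followed with 0.254% and 0.234%. The shares in endothelial-like cells were 0.178% and 0.154%, and those in stellate or fibroblast-like cells were 0.139% and 0.145%. Hepatocyte-like cells, which reached 30 cells in library 1 alone, had 0.193%. The 4 classes present in both libraries thus came in the same order, with the endothelial-like and stellate-like shares of library 2 close together. Per kb of window, the highest level in Kupffer-like cells of both libraries was that of Cd68, a macrophage lysosomal glycoprotein, at 16.6 and 20.3 CPM per kb. Grn, the progranulin gene, had 10.4 and 8.59 CPM per kb, and Atp6v0c, the gene of the main proteolipid of the V0 ring, had 9.88 and 9.10 CPM per kb. The lowest in both libraries was Atp6v1h, a regulatory V1 subunit, at 0.415 and 0.413 CPM per kb. The Cd68 value belongs to a crowded place: only 4.8% of its window lies in no other gene's window (Mpdu1 and Eif4a1 overlap it).

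**Figure D1:**
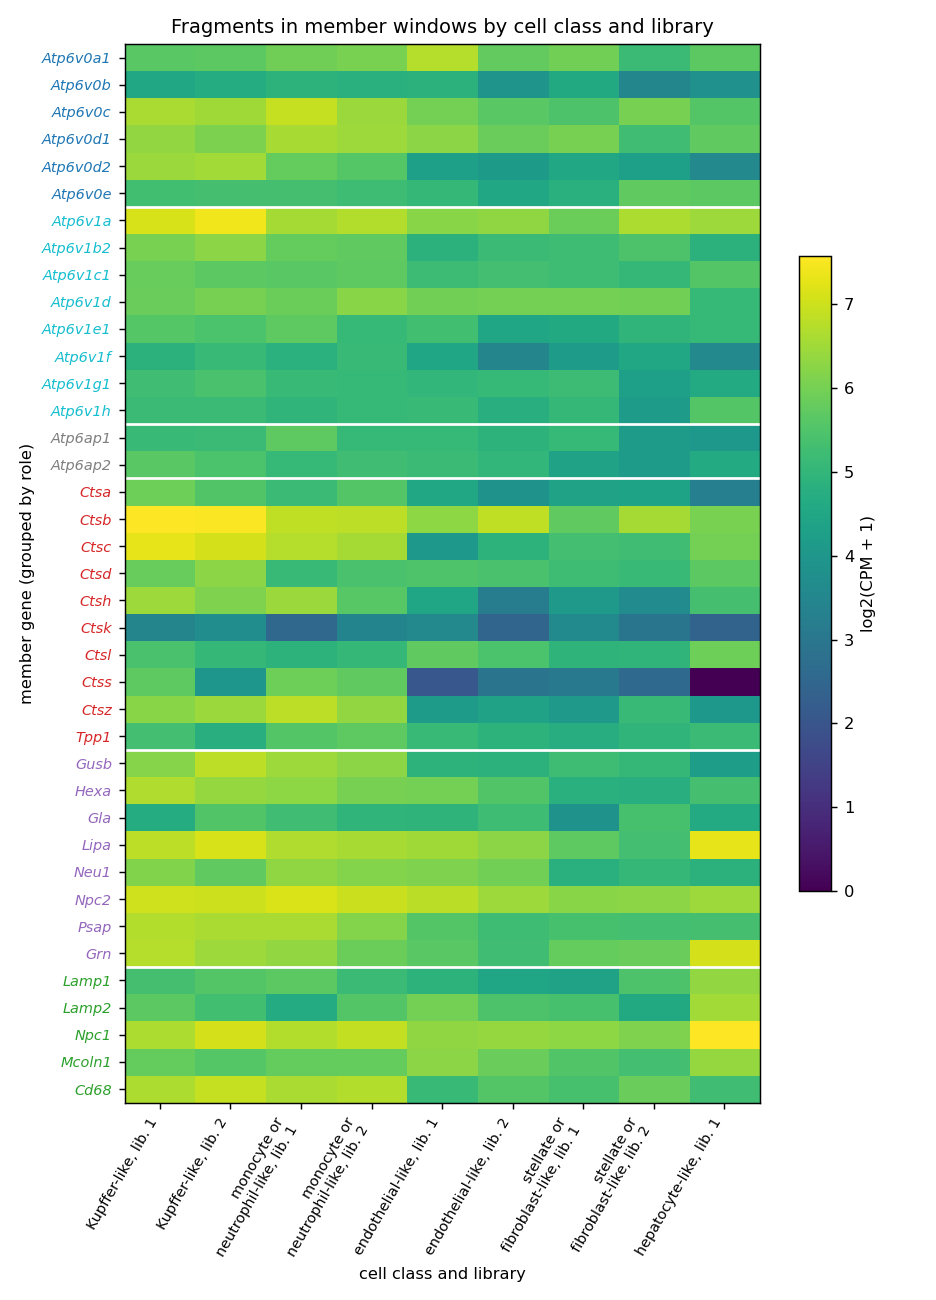
Levels of the 39 members (rows, grouped and coloured by role) in each cell class with at least 25 cells and each library (columns), as log2 of CPM plus 1. The 2 Kupffer-like columns and the 2 monocyte or neutrophil-like columns are brighter than the rest for Ctsc, Ctsh, Ctsz and Atp6v0d2, and Ctss is dark in the Kupffer-like column of library 2, at 14.7 CPM against 50.9 CPM in library 1.

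Within library 1, 16 of the 39 members were at least 1.5-fold higher in Kupffer-like than in endothelial-like cells, where 20.9% of the 14978 genes measured were, and 1 was at least 1.5-fold lower, where 17.5% of genes were. Within library 2, 22 of the 37 members with at least 50 fragments were higher, against 19.4% of 13430 genes, and none was lower, against 20.5% of genes. Ctsk and Ctss fell under the minimum in library 2. Ratios are given as log2 values relative to the median gene. The median member stood at 0.33 in library 1 and 0.76 in library 2. In both libraries the same 14 members passed 1.5-fold: the pump subunits Atp6v0c, Atp6v0d2, Atp6v1a and Atp6v1b2, the proteases Ctsa, Ctsb, Ctsc, Ctsh and Ctsz, the hydrolases and cofactors Gusb, Hexa, Psap and Grn, and Cd68. Another 8 passed in library 2 alone: Atp6v0b, Atp6v0e, Atp6v1e1, Atp6v1f, Ctsd, Lipa, Lamp1 and Npc1. The shares of all genes past 1.5-fold in both libraries, or in library 2 alone, were not counted, so these overlaps have no background. The counting interval lay above 0 for 19 of 39 members in library 1 (25.1% of genes) and 23 of 37 in library 2 (24.7%), and below 0 for 2 (23.4%) and 0 (24.9%). Endothelial-like cells of library 2 had the lower share of fragments in peaks, a median of 56.3% against 61.6% in Kupffer-like cells, while in library 1 these were 72.2% and 74.0%; the part of this in the ratios was not tested.

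**Figure D2:**
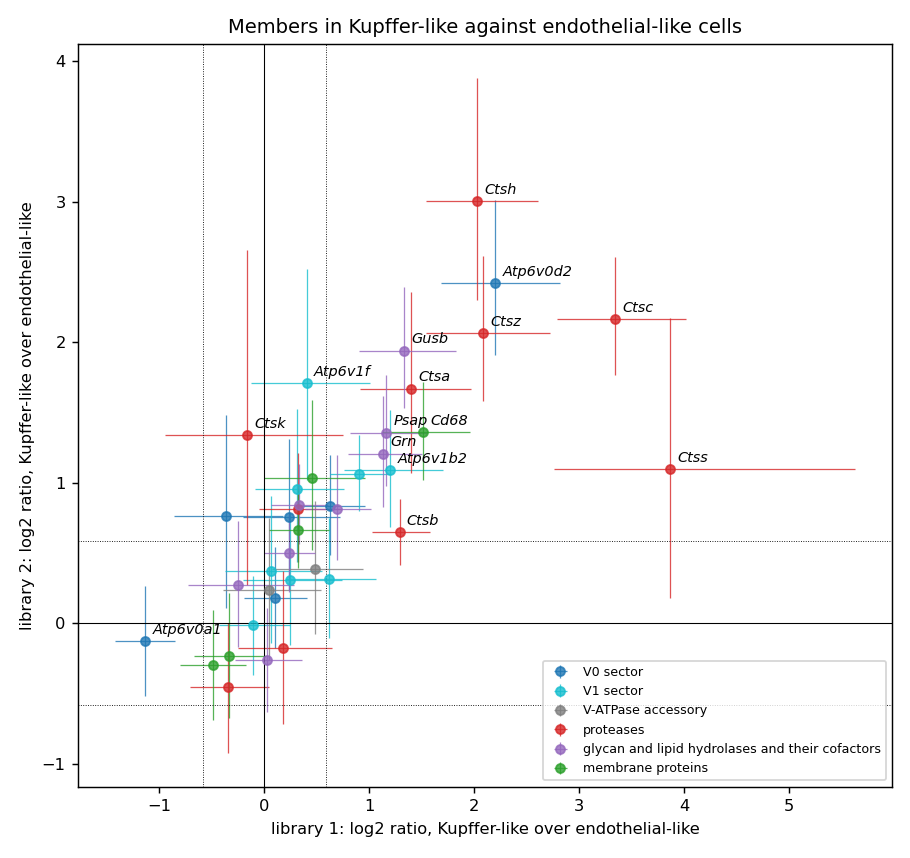
Log2 ratio of Kupffer-like over endothelial-like cells for each member, relative to the median gene, in library 1 (horizontal) and library 2 (vertical), with 95% counting intervals as bars and dotted lines at 1.5-fold. Most members lie above 0 in both libraries, with Ctsc at 3.34 and 2.17 and Atp6v0d2 at 2.20 and 2.42, while Atp6v0a1 lies at -1.14 in library 1 and -0.13 in library 2. Ctss and Ctsk have under 50 fragments in library 2.

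The proteases held the widest differences. In library 1, 6 of 10 were at least 1.5-fold higher in Kupffer-like cells (20.9% of genes) and 0 lower (17.5%), with a median log2 ratio of 1.35. In library 2, 6 of the 8 measured were higher (19.4% of genes) and 0 lower (20.5%), with a median of 1.24. Ctss, the gene of cathepsin S, a cysteine protease of antigen-presenting cells (chromosome 3, 95526786 to 95556405), had 278 fragments in Kupffer-like cells of library 1, a level of 50.9 CPM (95% interval 45.1 to 57.2), and 5 in endothelial-like cells, 3.19 CPM (1.04 to 7.45). In library 2 the same classes had 35 fragments (14.7 CPM, 10.2 to 20.4) and 13 fragments (6.53 CPM, 3.47 to 11.2). The log2 ratio of library 1 was 3.86 (2.76 to 5.63), the highest of all members. Ctsc encodes cathepsin C, the dipeptidyl peptidase that activates granule serine proteases (chromosome 7, 88278024 to 88315861). It had 158.1 CPM in Kupffer-like and 15.3 CPM in endothelial-like cells of library 1, a log2 ratio of 3.34 (2.79 to 4.02). In library 2 the levels were 135.0 and 29.1 CPM and the ratio 2.17 (1.77 to 2.60). Without the cells marked as doublets by an overlap rule, the ratio of Ctsc was 5.21 in library 1 and 4.53 in library 2. The promoters of both genes are shown because bins at their starts held many more fragments in Kupffer-like than in endothelial-like cells, for Ctsc in both libraries and for Ctss in library 1; capitals mark the core letters of a PU.1 site, GAGGAAGT read on the opposite strand. In GRCm38.p6 they lie at chr3:95526536-95526835 (plus strand) for Ctss, where the core spans the annotated start, and at chr7:88277835-88278134 (plus strand) for Ctsc.
Ctss: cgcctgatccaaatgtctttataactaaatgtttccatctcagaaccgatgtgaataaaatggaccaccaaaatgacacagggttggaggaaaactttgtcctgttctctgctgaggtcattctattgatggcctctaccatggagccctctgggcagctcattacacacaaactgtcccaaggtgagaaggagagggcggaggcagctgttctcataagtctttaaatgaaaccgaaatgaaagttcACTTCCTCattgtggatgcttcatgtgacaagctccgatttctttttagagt
Ctsc: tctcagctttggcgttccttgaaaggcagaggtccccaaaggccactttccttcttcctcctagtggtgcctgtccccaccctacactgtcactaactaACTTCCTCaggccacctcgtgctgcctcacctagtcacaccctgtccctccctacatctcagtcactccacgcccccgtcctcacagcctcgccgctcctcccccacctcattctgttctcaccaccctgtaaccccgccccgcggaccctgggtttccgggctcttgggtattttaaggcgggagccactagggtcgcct
The 1 kb bin that holds the Ctss start (chr3:95526001-95527000) had 64 fragments in Kupffer-like and 1 in endothelial-like cells of library 1, 11.7 and 0.638 CPM. In library 2 it had 5 and 3, a log2 ratio of 0.36 (-1.92 to 3.13). The bin just before the Ctsc start (chr7:88277001-88278000) had 260 and 149 fragments (47.6 and 62.5 CPM) in Kupffer-like cells of libraries 1 and 2. In endothelial-like cells it had 11 and 12 (7.02 and 6.025 CPM). Bin counts here and below are not scaled for depth, and the classes differ in it. Kupffer-like cells held 5466469 and 2384991 fragments in all, and endothelial-like cells 1566777 and 1991656.

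Ctsh, the gene of cathepsin H, an aminopeptidase (chromosome 9, 90054267 to 90076095), had 87.1 and 67.9 CPM in Kupffer-like cells of libraries 1 and 2 and 21.1 and 8.03 CPM in endothelial-like cells. The library 1 ratio of Ctsh was 2.03 (1.54 to 2.61), and its library 2 ratio of 3.003 (2.30 to 3.88) was the highest there. Ctsz, the gene of the carboxypeptidase cathepsin Z (chromosome 2, 174427494 to 174439039), had nearly the same ratio in both, 2.08 (1.54 to 2.73) and 2.07 (1.58 to 2.62), from 74.1 and 85.1 CPM against 17.2 and 19.6 CPM. Ctsa, which protects lysosomal glycosidases, reached 1.40 and 1.67, and Ctsb, a broad cysteine protease, 1.29 and 0.65. Not every protease was higher. Ctsl, another broad cysteine protease, had 41.3 and 31.9 CPM in Kupffer-like against 52.3 and 42.7 CPM in endothelial-like cells, with ratios of -0.34 (-0.71 to 0.05) and -0.46 (-0.92 to 0.01), whose intervals reach 0. Tpp1, a tripeptidyl peptidase, lay at 0.18 and -0.18, and Ctsk, the collagen-degrading protease of osteoclasts, at -0.16 (-0.94 to 0.75) in library 1. Ctsd, the aspartic protease cathepsin D (chromosome 7, 142375910 to 142387827), lay at 0.32 (-0.05 to 0.73) in library 1 and 0.82 (0.44 to 1.21) in library 2. Its promoter is shown because Ctsd also differed between the libraries; capitals mark the E-box core TCACGTG of TFEB, which overlaps itself on the 2 strands at the second place. It lies at chr7:142387778-142388077 (minus strand).
Ctsd: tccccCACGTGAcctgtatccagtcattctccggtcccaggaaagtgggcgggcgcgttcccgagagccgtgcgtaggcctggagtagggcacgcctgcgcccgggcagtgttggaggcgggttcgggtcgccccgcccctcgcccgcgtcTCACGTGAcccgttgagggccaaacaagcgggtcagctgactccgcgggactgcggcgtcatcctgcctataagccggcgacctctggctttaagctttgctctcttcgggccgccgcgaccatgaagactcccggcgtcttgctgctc

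In the V0 sector 2 of 6 subunits were at least 1.5-fold higher in Kupffer-like cells of library 1 (20.9% of genes) and 1 lower (17.5%). In library 2, 4 of 6 were higher (19.4%) and 0 lower (20.5%). The d subunit joins V0 to the central stalk, and of its 2 isoforms only Atp6v0d2, the one known from osteoclasts and other macrophage-lineage cells, was far apart between the classes. Atp6v0d2 (chromosome 4, 19876838 to 19922566) had 86.2 and 92.2 CPM in Kupffer-like cells of libraries 1 and 2 and 18.5 and 16.6 CPM in endothelial-like cells, with ratios of 2.20 (1.68 to 2.82) and 2.42 (1.91 to 3.01). The ubiquitous isoform Atp6v0d1 lay at 0.10 (-0.19 to 0.41) and 0.18 (-0.17 to 0.54). The a subunit carries the proton path and steers the pump to a membrane. Atp6v0a1 (chromosome 11, 101009422 to 101063719) was the single member at least 1.5-fold lower in Kupffer-like cells of library 1, with 48.5 CPM against 106.6 CPM in endothelial-like cells and a ratio of -1.14 (-1.42 to -0.85). In library 2 these levels were 49.5 and 52.7 CPM and the ratio was -0.13 (-0.52 to 0.26): the Kupffer-like levels were alike in the 2 libraries, and the endothelial-like level differed. Within 1 kb of the Atp6v0a1 start the library 1 ratio was -0.14. Of the other a isoforms, which are not among the 39, Tcirg1, the a3 gene of lysosomes and osteoclasts, lay at 1.21 and 2.11, Atp6v0a2 at -0.88 and -0.49, and Atp6v0a4 at -0.32 and -0.63. The proteolipid gene Atp6v0c reached 0.63 and 0.83, and Atp6v0e, a small V0 subunit, lay at 0.24 and 0.76. Atp6v0b, another proteolipid, lay at -0.36 (-0.86 to 0.18) and 0.76 (0.11 to 1.48), so the libraries gave opposite signs for it, with only 16.0% of its window free of neighbours.

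In the V1 sector 3 of 8 subunits were at least 1.5-fold higher in Kupffer-like cells of library 1 (20.9% of genes). In library 2 it was 4 of 8 (19.4%), with 0 lower in either library (17.5% and 20.5%). The catalytic A subunit gene Atp6v1a had 139.0 and 170.7 CPM against 74.0 and 79.3 CPM, with ratios of 0.91 (0.63 to 1.21) and 1.06 (0.80 to 1.34). Atp6v1b2, the B subunit that forms the ATP-binding head with A, had ratios of 1.202 (0.76 to 1.70) and 1.09 (0.69 to 1.52). In both libraries the 2 subunits of the head were past 1.5-fold. None of the stalk and regulatory subunits was past it in both: Atp6v1c1 passed in library 1 (0.62 and 0.32), and Atp6v1e1 (0.31 and 0.96) and Atp6v1f (0.41 and 1.71) passed in library 2. Atp6v1d lay at -0.10 and -0.02, Atp6v1g1 at 0.25 and 0.31, and Atp6v1h at 0.07 and 0.37. The accessory genes Atp6ap1 and Atp6ap2, which assist the assembly of the pump, lay between 0.05 and 0.49 in both libraries.

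Among the hydrolases and their cofactors 4 of 8 were at least 1.5-fold higher in library 1 (20.9% of genes). In library 2 it was 5 of 8 (19.4%), with 0 lower in either library (17.5% and 20.5%). Gusb, the gene of β-glucuronidase (chromosome 5, 129989011 to 130003049), had 73.0 and 111.5 CPM in Kupffer-like and 28.7 and 28.1 CPM in endothelial-like cells, with ratios of 1.33 (0.90 to 1.83) and 1.94 (1.53 to 2.39). Psap, whose product is cut into the saposins that help degrade sphingolipids, reached 1.16 and 1.36, and Grn reached 1.13 and 1.21. Hexa, a subunit of β-hexosaminidase, reached 0.69 and 0.81. Lipa, the gene of lysosomal acid lipase, reached 0.33 (0.07 to 0.61) and 0.84 (0.56 to 1.13). Neu1, the lysosomal sialidase, and Npc2, the soluble cholesterol carrier, stayed within 1.5-fold, at 0.03 and -0.26 and at 0.24 and 0.50. Gla, the α-galactosidase A gene (chromosome X, 134588169 to 134601005), was the member of this group with the lowest library 1 ratio, -0.25 (-0.73 to 0.28), and had 0.27 (-0.17 to 0.73) in library 2. The promoters of Gusb and Gla are shown because these genes differed most between the libraries on the higher side. Capitals mark a PU.1 core in both (read on the opposite strand), a CRE core TGACGTCA in Gusb and the E-box core in Gla. They lie at chr5:130003000-130003299 for Gusb and chrX:134600956-134601255 for Gla, both on the minus strand.
Gusb: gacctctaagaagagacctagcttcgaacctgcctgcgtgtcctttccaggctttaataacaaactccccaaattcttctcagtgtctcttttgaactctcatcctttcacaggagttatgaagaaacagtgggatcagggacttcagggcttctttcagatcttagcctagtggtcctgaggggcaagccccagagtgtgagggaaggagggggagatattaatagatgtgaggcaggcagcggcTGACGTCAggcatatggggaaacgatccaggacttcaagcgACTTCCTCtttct
Gla: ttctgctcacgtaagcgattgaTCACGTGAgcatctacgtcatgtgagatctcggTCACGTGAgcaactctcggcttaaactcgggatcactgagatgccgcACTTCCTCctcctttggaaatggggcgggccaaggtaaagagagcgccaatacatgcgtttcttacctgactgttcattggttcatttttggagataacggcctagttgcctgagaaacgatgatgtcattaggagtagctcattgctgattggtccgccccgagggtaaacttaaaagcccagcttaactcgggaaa

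Of the 5 membrane proteins, 1 was at least 1.5-fold higher in library 1, near the share of all genes (20.9%). In library 2 it was 3 (19.4% of genes), with 0 lower in either library (17.5% and 20.5%). Cd68 (chromosome 11, 69664213 to 69666170) had 98.97 and 120.8 CPM in Kupffer-like and 34.5 and 45.7 CPM in endothelial-like cells, with ratios of 1.51 (1.12 to 1.96) and 1.36 (1.02 to 1.72). Lamp1, an abundant glycoprotein of the lysosomal membrane, lay at 0.45 and 1.03, and Npc1, the membrane cholesterol exporter, at 0.32 and 0.67. Lamp2, the partner of Lamp1, went the other way, at -0.34 and -0.23, both with intervals that reach 0. Mcoln1, the lysosomal calcium channel TRPML1 (chromosome 8, 3500519 to 3515232), had 54.5 and 47.0 CPM in Kupffer-like and 76.6 and 56.2 CPM in endothelial-like cells, with ratios of -0.49 (-0.80 to -0.17) and -0.30 (-0.69 to 0.09). The Mcoln1 promoter (chr8:3500269-3500568, plus strand), shown for comparison because it holds E-box cores at a gene that was not higher in Kupffer-like cells, reads as follows, with the cores in capitals.
Mcoln1: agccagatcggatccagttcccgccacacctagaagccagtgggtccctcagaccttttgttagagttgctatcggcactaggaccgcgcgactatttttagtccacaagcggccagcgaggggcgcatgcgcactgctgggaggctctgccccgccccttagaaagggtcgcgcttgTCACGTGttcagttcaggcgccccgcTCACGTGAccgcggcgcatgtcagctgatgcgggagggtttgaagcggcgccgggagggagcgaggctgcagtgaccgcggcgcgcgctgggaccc

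Kupffer-like cells were also set against stellate or fibroblast-like and monocyte or neutrophil-like cells. Over stellate-like cells, 22 of 39 members were at least 1.5-fold higher in Kupffer-like cells of library 1 (22.2% of all genes were) and 22 of 37 in library 2 (21.1%), with 0 lower in either (20.4% and 21.8% of genes). Over monocyte-like cells, 9 of 39 were higher in library 1 (13.6% of genes) and 0 lower (9.81%), and in library 2 12 of 38 were higher (16.2%) and 2, Ctss and Tpp1, lower (16.7%). The medians were 0.72 and 0.68 over stellate-like and 0.10 and 0.32 over monocyte-like cells. Ctss was as open in monocyte-like as in Kupffer-like cells of library 1, at 59.3 CPM, and stayed at 51.6 CPM in library 2, where Kupffer-like cells had 14.7 CPM. Its Kupffer-like over monocyte-like ratio was -0.14 in library 1 and -1.62 in library 2. Against the 30 hepatocyte-like cells of library 1, 18 members were higher (27.1% of genes) and 9 lower (26.6%). The membrane proteins took a different direction there: Lamp1 (-1.33), Npc1 (-1.22), Lamp2 (-1.18) and Mcoln1 (-0.90) were all lower in Kupffer-like cells, while Cd68 was higher (1.097). Ctss had 0 fragments in the hepatocyte-like cells, which allows a level of up to 8.08 CPM.

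In the member windows much of what set Kupffer-like cells apart lay away from the gene starts, where genes in general differed more too. Within 1 kb of the start the median member had 44.8% of its window's fragments in Kupffer-like and 65.1% in endothelial-like cells of library 1, and 29 of 39 members had the lower share in Kupffer-like cells (56.3% of genes did). For all genes the medians were 44.7% and 49.3%. In library 2 the members' medians were 51.7% and 64.9%, with 25 of 37 lower (50.2% of genes), and those of all genes were 46.2% and 47.4%. In a count of the window outside 1 kb of the start, a setting chosen after the values were seen, the members' median ratio was 1.104 in library 1 and 1.24 in library 2. Within 1 kb of the start it was 0.08 and 0.28. Of all genes in library 1, 29.5% were at least 1.5-fold higher and 27.0% lower outside 1 kb, against 14.6% and 9.56% within it. In library 2 these shares were 28.35% and 28.5% outside, against 11.4% and 12.4% within. The start was taken from the strand in the promoter table for 31 members and as the fuller gene end for the others. Atp6v0d2 was the extreme case: the gene end taken as its start held 0.637% and 1.82% of its Kupffer-like fragments, and the 1 kb bin at chr4:19895001-19896000, 27.1 kb from that end, held 188 and 115 fragments in Kupffer-like against 4 and 7 in endothelial-like cells. A bin of Lipa 12.0 kb from its start (chr19:34515001-34516000) had 123 and 64 fragments against 2 and 2. Another Lipa bin, 26.0 kb from the start (chr19:34501001-34502000), went the other way, with 18 and 3 fragments in Kupffer-like against 17 and 30 in endothelial-like cells and ratios of -1.72 (-2.76 to -0.67) and -3.42 (-5.97 to -1.93). In Npc2 (chr12:84762001-84763000) a bin 10.6 kb from the start had 87 and 25 against 0 and 2, although the ratios of its whole window were within 1.5-fold. In Psap the bin at chr10:60286001-60287000 had 100 and 28 against 1 and 3. Atp6v1a had bins inside the gene with 50 and 12 against 0 and 3 fragments (chr16:44109001-44110000), while the bin at its start (chr16:44139001-44140000) had 230 and 134 against 70 and 90, a ratio of -0.09 in library 1 and 0.27 in library 2. These bins were picked after their values were seen, so they describe where the fragments lay and are no test. Their counts are not scaled for the unequal totals of the classes. In CPM the Atp6v0d2 bin had 34.4 and 48.2 in Kupffer-like against 2.55 and 3.515 in endothelial-like cells.

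**Figure D3:**
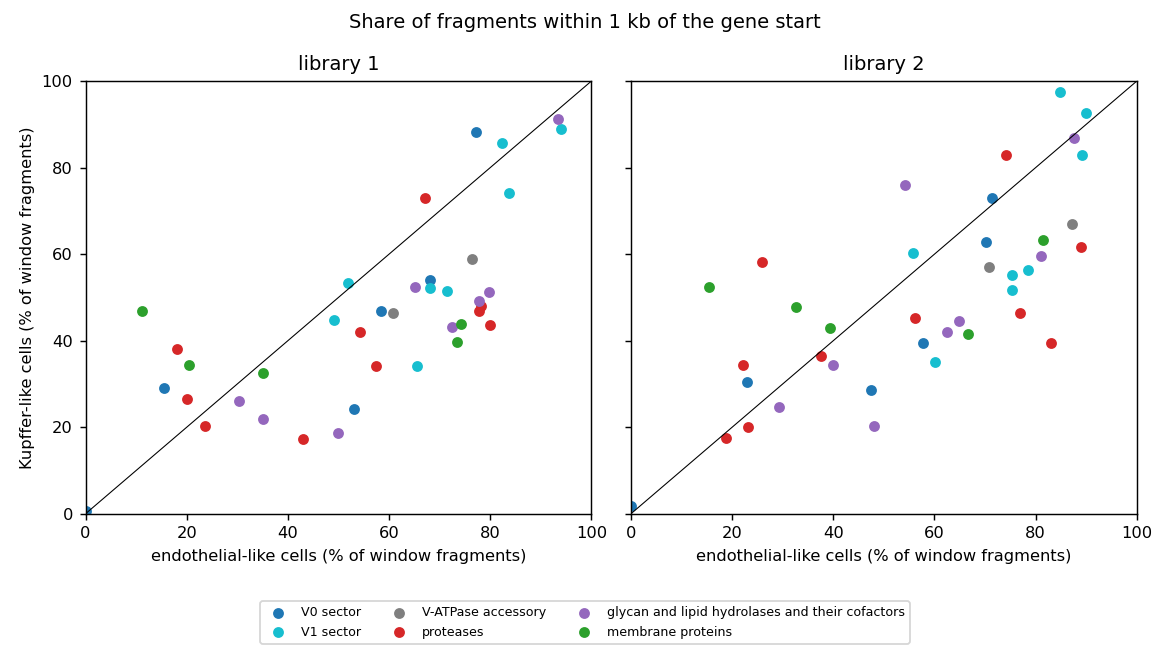
Share of each member's window fragments that lies within 1 kb of the gene start, in endothelial-like (horizontal) and Kupffer-like cells (vertical), in percent, for library 1 and library 2, with the line of equal shares. Most points lie below the line, 29 of 39 in library 1 and 25 of 37 members with at least 50 fragments in library 2.

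Between the libraries, Kupffer-like cells of library 2 had 4 members at least 1.5-fold above library 1, where 13.7% of the 15131 genes measured were, and 1 at least 1.5-fold below, where 13.1% of genes were. The members' share is thus near or under that of all genes on both sides, and their median ratio was 0.19. The counting interval lay above 0 for 13 of 39 members (23.9% of genes) and below 0 for 1, Ctss (20.6%). All 14 subunits of the 2 pump sectors stayed within 1.5-fold, between -0.08 and 0.49. The 4 members on the higher side were Gla, Gusb, Ctsd and Npc1, and the one on the lower side was Ctss. The median of all genes shifted by -0.10 when fragments near transcription start sites set the scale with no centring; 2 members, Gla and Gusb, then stayed past 1.5-fold on the higher side and Ctss on the lower, and 10.8% of genes were higher and 17.4% lower. The following measures moved with this comparison and with the clusters named above: the Kupffer-like cells of library 2 had a median of 61.6% of fragments in peaks against 74.0%, 9.56% of fragments in pile-ups against 0.428%, and a Kupffer marker sum of 781 against 1129 CPM. The part of these measures in the differences was not tested, and library, mouse, genotype and run cannot be told apart. In endothelial-like cells 3 of 36 members (Ctsc, Ctsb and Cd68) were at least 1.5-fold higher in library 2 (14.3% of genes) and 4 (Atp6v1f, Atp6v0a1, Atp6v0b and Atp6v1e1) lower (11.1%). In monocyte-like cells 1 of 38, Lamp2, was higher (8.35%) and 1, Ctsh, lower (4.65%). In stellate-like cells, 26 of which came from library 2, 5 of 17 measured members (Atp6v0e, Ctsb, Atp6v1a, Atp6v0c and Cd68) were higher, between 0.62 and 1.06 (13.5% of genes), and 2 (Atp6v0a1 and Atp6v0d1) lower (13.5%).

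**Figure D4:**
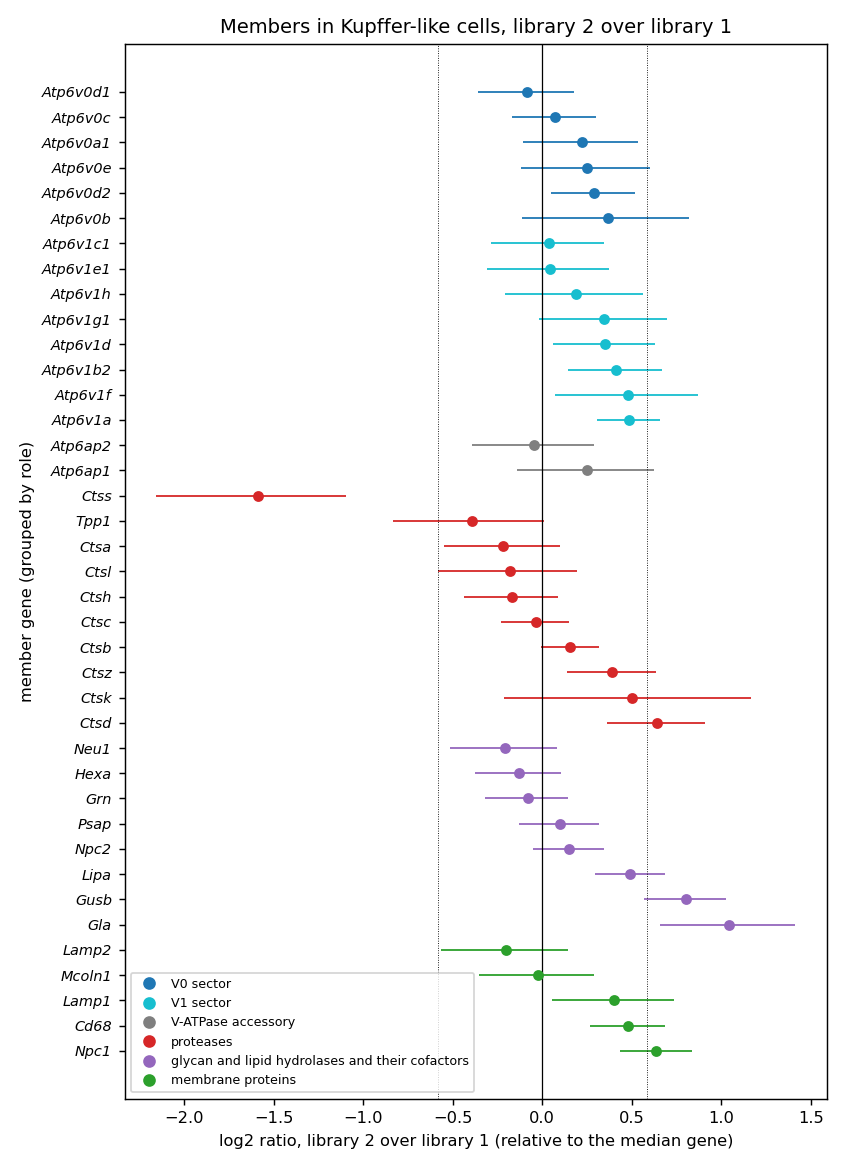
Log2 ratio of library 2 over library 1 in Kupffer-like cells for each member, relative to the median gene, sorted within the roles and coloured by role, with 95% counting intervals and dotted lines at 1.5-fold. Ctss stands alone on the left at -1.59, and Gla at 1.04 and Gusb at 0.80 stand farthest to the right.

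Ctss stood at 50.9 CPM (45.1 to 57.2) in Kupffer-like cells of library 1 and at 14.7 CPM (10.2 to 20.4) in those of library 2, a log2 ratio of -1.59 (-2.15 to -1.09), and it ranged from -1.995 to -1.36 over the 16 other settings. Both Kupffer-like clusters of library 1 were high, at 55.3 CPM in cluster 1 and 46.9 CPM in cluster 8, and cluster 2 of library 2 had 14.6 CPM. The 14 cells of library 1 that fell into cluster 2 had 0 Ctss fragments, which allows a level of up to 80.0 CPM, so they do not tell the cluster from the library. The difference was large at the start: the bin at chr3:95526001-95527000 had 64 fragments from 58 of 323 cells in library 1 and 5 fragments from 5 of 173 cells in library 2, a ratio of -2.17 (-3.96 to -0.996). In monocyte-like cells the same bin had 5 and 18 fragments, 6.05 and 9.77 CPM. At chr3:95530001-95531000, 3.71 kb into the gene, the Kupffer-like counts were 68 and 14, 12.4 and 5.87 CPM. The whole Ctss window of monocyte-like cells had a library 2 over library 1 ratio of -0.13.

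The Gusb window held 73.0 CPM (66.0 to 80.5) in Kupffer-like cells of library 1 against 111.5 CPM (98.5 to 125.8) in those of library 2, a ratio of 0.80 (0.57 to 1.03). Its clusters of library 1 stood close together, at 71.7 and 75.3 CPM. A single place in the gene stood out: the bin at chr5:129995001-129996000, 7.55 kb from the start shown above, had 11 fragments from 10 of 323 Kupffer-like cells in library 1 and 59 fragments from 52 of 173 cells in library 2, a ratio of 3.76 (2.87 to 4.89). The 59 fragments began at 49 different positions and no cell gave more than 3. In endothelial-like cells it had 0 and 3 fragments and in monocyte-like cells 0 and 5. The unnamed cluster of library 2 had 35 there, 6.55 CPM against 24.7 CPM in the Kupffer-like cells. The bins nearer the Gusb start differed less, at 0.66 in the bin that begins at 130002001 and 0.27 in the bin that begins at 130000001.

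Gla went from 24.9 CPM (20.9 to 29.4) in the first library to 44.9 CPM (36.8 to 54.2) in the second, a ratio of 1.04 (0.66 to 1.42), the highest of the members. In contrast with Gusb, nearly all of it lay at the start, with 91.2% and 86.9% of the fragments within 1 kb. The start bins at chrX:134601001-134602000 and chrX:134600001-134601000 had 102 and 42 fragments in library 1 and 66 and 37 in library 2, with a fragment that reaches both bins counted in each. In CPM these were 18.7 and 7.68 in library 1 and 27.7 and 15.5 in library 2. Gla has 54.1% of its window free of other genes, and the Rpl36a and Hnrnph2 windows overlap it. That share is one of length. It does not tell whether the start of Gla, where nearly all fragments lay, is in the free part. The fragments at the start can therefore not be assigned to Gla alone. In monocyte-like cells its library 2 over library 1 ratio was -0.26. Ctsd had 55.2 CPM (49.2 to 61.8) and 75.5 CPM (64.8 to 87.3), a ratio of 0.64 (0.36 to 0.91). Npc1 had 98.97 CPM (90.8 to 107.7) and 135.0 CPM (120.7 to 150.6), a ratio of 0.64 (0.43 to 0.84). Both are just past 1.5-fold. With pile-ups masked the ratio of Npc1 was 0.43, and within 1 kb of the start that of Ctsd was 0.32. In cells thinned to 5000 fragments the ratios of Gusb, Ctsd and Npc1 were 0.53, 0.52 and 0.36, under 1.5-fold, and that of Gla was 1.55. The nearest members inside 1.5-fold were Ctsk on the higher side, at 0.50 (-0.22 to 1.17), and Tpp1 on the lower, at -0.39 (-0.83 to 0.01).

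Neu1 (chromosome 17, 34931253 to 34937297) shows how a window can hide unlike parts. Its start bin (chr17:34931001-34932000) had 194 and 92 fragments in Kupffer-like cells of libraries 1 and 2, a ratio of 0.31 (-0.07 to 0.67). A bin 4.25 kb downstream (chr17:34935001-34936000) had 104 fragments from 86 cells in library 1 and 9 fragments from 9 cells in library 2, a ratio of -2.07 (-3.31 to -1.17). In endothelial-like cells the downstream bin had 25 and 34 fragments, 16.0 and 17.1 CPM, so these cells held their level while Kupffer-like cells went from 19.0 to 3.77 CPM. Counted only in the 68.3% of the Neu1 window outside that of Slc44a4, the Kupffer-like ratio of library 2 over library 1 was -1.15, past 1.5-fold. The bin was chosen after its values were seen.

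**Figure D5:**
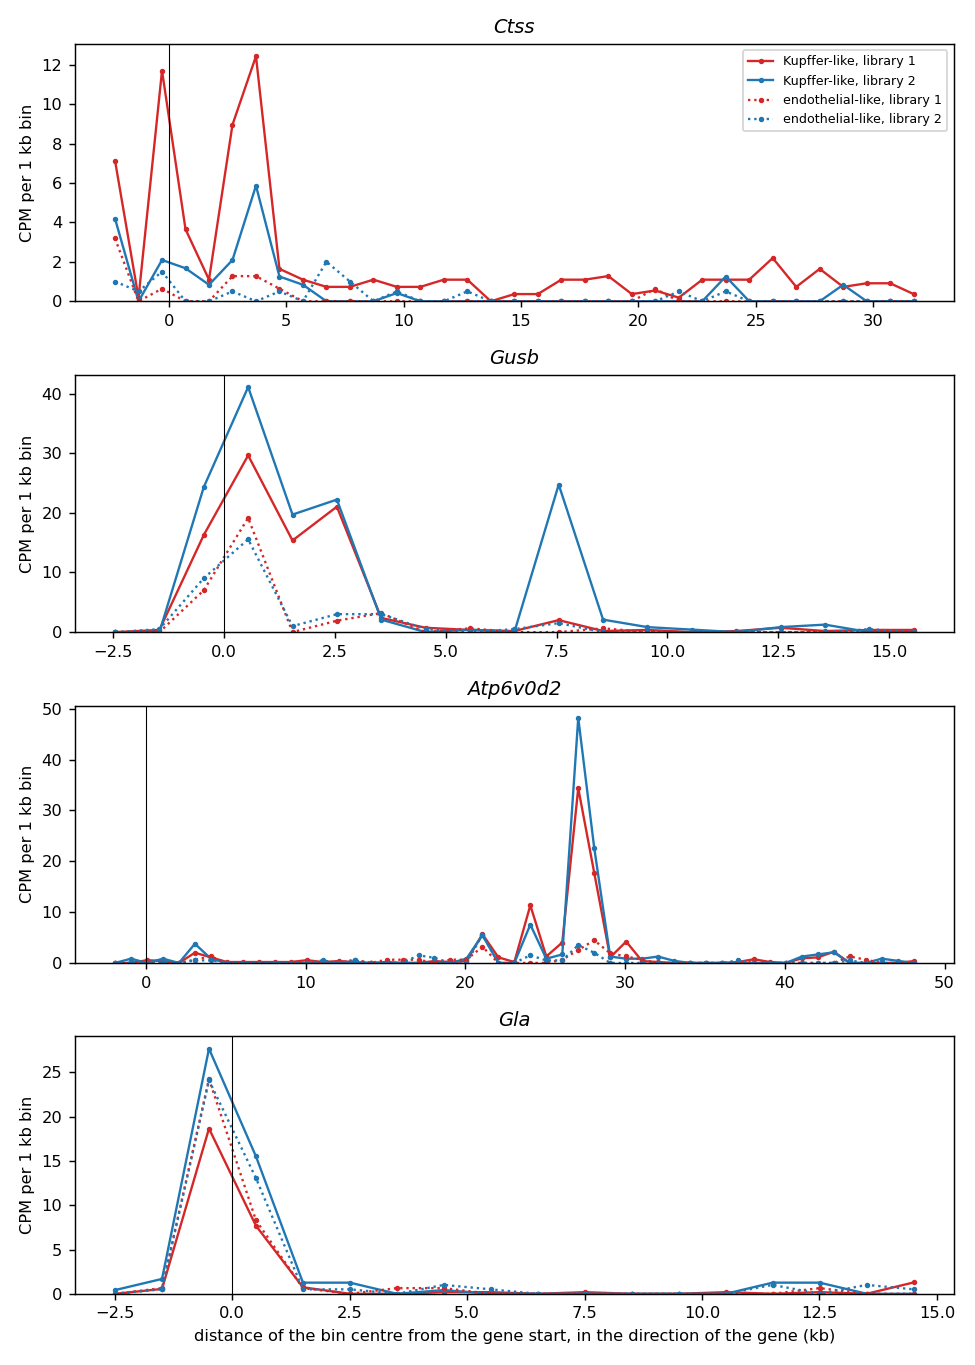
CPM per 1 kb bin along Ctss, Gusb, Atp6v0d2 and Gla, by distance of the bin centre from the gene start in the direction of the gene (kb), for Kupffer-like (solid) and endothelial-like cells (dotted) of library 1 (red) and library 2 (blue). Ctss is higher in Kupffer-like cells of library 1 at the start and just inside the gene, Gusb has a bin 7.55 kb into the gene at 24.7 CPM in library 2 and 2.01 CPM in library 1, Atp6v0d2 has its peak 27.1 kb from the gene end taken as its start in both, and Gla lies almost wholly at its start.

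Of the 39 members, 31 had a promoter in the RefSeq table of GRCm38.p6 (300 bases each, mostly upstream of the start), which holds 27025 promoters in all. Letters were searched on both strands. The E-box core TCACGTG was in 8 member promoters (25.8%): Atp6v0b, Atp6v0d1, Atp6v0e, Atp6v1a, Ctsd, Gla, Lamp1 and Mcoln1. It was in 3.84% of all promoters and in 12 of 56 promoters of other lysosome genes (21.4%). The PU.1 core GAGGAAGT, from a factor that defines myeloid cells, was in 4 member promoters (12.9%), those of Ctsc, Ctss, Gla and Gusb, in 3.28% of all promoters and in 0 of 56 of the other lysosome genes. The AP-1 core TGANTCA was in 4 (12.9%): Atp6v0a1, Cd68, Neu1 and Psap, against 7.93% of all. The CRE core TGACGTCA was in 1, that of Gusb, against 1.88%. The 8 promoters with an E-box core include genes on both sides of the Kupffer-like over endothelial-like ratio of library 1, from Mcoln1 at -0.49 to Atp6v1a at 0.91. The 4 with a PU.1 core span that ratio from Gla at -0.25 and Gusb at 1.33 to the top 2 members, Ctsc and Ctss, and include the highest (Gla) and the lowest (Ctss) of library 2 over library 1. A match describes letters in a window and is neither a bound site nor a cause.

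A further 68 lysosome genes outside the 39 also leaned towards Kupffer-like cells, with lower medians than the members and more genes on the lower side. This list too was chosen with earlier results of these data known, so it is no independent check. In library 1, 24 of 66 measured were at least 1.5-fold higher in Kupffer-like cells (20.9% of all genes) and 6 lower (17.5%), with a median of 0.29. In library 2, 27 of 65 were higher (19.4%) and 6 lower (20.5%), with a median of 0.47. The highest in library 1 were Laptm5, a lysosomal protein of blood cells, at 3.48 (2.69 to 4.56), and the pump isoform Atp6v1g3 at 3.25 (1.88 to 5.76); in library 2 they were Laptm5 at 2.89 (2.20 to 3.74) and Ctse, an aspartic protease, at 2.21 (1.55 to 3.003). The lowest was Manba, the β-mannosidase gene, in both, at -1.54 (-1.85 to -1.24) and -1.83 (-2.26 to -1.43), followed by the sorting receptor gene Sort1 at -1.12 in library 1 and Lamtor3, a Ragulator subunit, at -1.11 in library 2. The libraries did not rank all of these alike: 8.33% of genes lay below Sort1 in library 1 and 60.4% in library 2. For Atp6v1g3 these shares were 99.35% and 85.7%, and for Lamtor3 32.2% and 9.70%. Within 1 kb of the start the library 1 ratio of Manba was 0.60, so its direction rests on the part away from the start. Of the 7 other pump subunits and isoforms measured, 2 were higher and 2 lower in each library, with medians of -0.32 and -0.35. Hydrolases, membrane proteins, sorting genes, regulators, and Ragulator and Rag genes all had medians above 0, the last at 0.07 and 0.17. Of the 4 regulators, Mitf (1.92 and 1.76), Tfeb (1.18 and 1.53) and Tfec (0.87 and 1.00) passed 1.5-fold in both libraries, and Tfe3 did not (0.17 and 0.19). The share of all genes that passed in both was not counted. Between the libraries 4 of 67 were higher in Kupffer-like cells (13.7% of all genes) and 4 lower (13.1%), with a median of 0.04. Both counts are under the share of all genes. The acid phosphatases Acp5 at -0.87 (-1.38 to -0.42) and Acp2 at -0.75 (-1.11 to -0.41) were lowest. Atp6v1c2 at 1.96 (1.32 to 2.64) and Gnptg, a subunit of the enzyme that marks hydrolases for sorting, at 1.02 (0.46 to 1.56) were highest. With pile-ups masked the ratio of Atp6v1c2 was 0.46, and with cells classed by their own markers that of Gnptg was 0.13.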

How the data were processed

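Single-nucleus ATAC-seq of 2 mouse liver samples was used, with 1 library per group. The authors deposited 1 fragment file and 1 table of counts per barcode for both libraries together; per the file headers and values, each fragment line holds a position, a barcode and a duplicate count, and the cell table holds whole-number counts and a flag for called cells. The submitters' processing notes name the build GRCm38.p5 and, with no role given, Signac 0.2.4, Seurat, R 3.6.1, Cell Ranger and Cell Ranger ATAC 1.2.0; the aligner's settings and the threshold for calling cells are not given in the sources used here. No file ties a barcode suffix to a sample.

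Fragments of called cells that overlap a protein-coding gene with 2 kb on each side were counted once per gene, with genes and promoters from RefSeq GRCm38.p6, whose chromosomes have the coordinates of GRCm38.p5. A fragment in overlapping windows counts for each of them. Cells were clustered on 346369 bins of 5 kb seen in at least 10 cells, without 246 bins of the member windows (30 components, of which 29 were used, 20 neighbours, Leiden resolution 0.5; scikit-learn 1.9.0, leidenalg 0.10.2), and clusters were named from markers. Counts were summed per class and library. Ratios were scaled by all fragments of the class, centred on the median gene with at least 50 fragments, and called at 1.5-fold. Intervals are exact Poisson for CPM and exact binomial for ratios, with 0.5 added to both counts for the ratio itself (scipy 1.17.1). The ratio script was tested on simulated data.

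Doublets were kept: an overlap rule marked 36 and 136 cells, scrublet (scanpy 1.11.5) 23 and 8, and runs without either set were made. In addition to these, 14 settings were tried, of cell filters, windows, scaling, minimum, depth and pile-ups. The members and lists were chosen with earlier results of these data known. Genes named by rule are, in each comparison, the 4 highest and 4 lowest members, every member past 1.5-fold between libraries, and the 2 highest and 2 lowest of the other lysosome genes; the others and all 1 kb bins were picked to describe their role or after their values were seen. No columns of other samples were present. Expression and genotype were not analysed here.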

Additional observations from a re-analysis of the deposited data

Results flagged for a closer look

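Barcodes that were not called cells, which no comparison uses, also held fragments in the member windows: 3163 in library 1 and 7740 in library 2. These were 0.165% and 0.0816% of all fragments of such barcodes, against 0.236% and 0.187% in called cells. Ctss had 19.8 CPM in them in library 1 and 14.7 CPM in library 2, the latter the level of Kupffer-like cells of that library. The part of such fragments in the low levels of called cells was not tested.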

How the results depend on the processing

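With 1 library per group no library could be left out, and counting depth limits members with few fragments, such as Ctsk and Ctss in endothelial-like cells. No paired analysis was possible because each group has 1 library and the barcodes carry no replicate number. Of the medians and counts under other settings, 173 stayed within 1.5 times the main count or within the median bounds of the reported intervals and 19 moved; the cause was not tested. In library 1, Kupffer-like over endothelial-like, 2 of 39 members were lower with cells classed by their own marker fragments (17.9% of genes in that setting). The number lower was 2 of 34 in the parts of windows in no other window (20.4%). It was 0 of 37 within 1 kb of the start (9.56%) and 5 of 36 outside 1 kb of the start (27.0%). The number higher was 8 of 37 within 1 kb of the start (14.6% of genes). Outside 1 kb of the start, a setting chosen after seeing the data, the median was 1.104, and that of the other lysosome genes 0.78. Manba reversed to 0.60 within 1 kb of the start. In library 2 the number lower was 2 of 36 by own markers (19.3% of genes) and 1 of 37 without cells marked by the overlap rule (21.0%). It was 1 of 30 in parts in no other window (23.0%) and 2 of 28 outside 1 kb of the start (28.5%). Within 1 kb of the start the number higher was 12 of 36 (11.4% of genes) and the median 0.28, and outside it the median was 1.24. For library 2 over library 1 in Kupffer-like cells the number higher was 7 of 39 by own markers (14.7% of genes). It was 7 of 39 in gene bodies without flanks (15.6%) and 2 of 39 with scaling by fragments near transcription start sites (10.8%). The number lower was 3 of 35 in parts in no other window (13.85%) and 4 of 35 outside 1 kb of the start (14.8%).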
